A study of Mus musculus with 18 samples.

Results

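The Sox genes encode transcription factors that bind DNA through an HMG box, a domain of about the same length in each of them. The 10 genes described here were taken as the neural members of 3 groups of the family, SoxB (Sox1, Sox2, Sox3 and Sox21), SoxC (Sox4, Sox11 and Sox12) and SoxE (Sox8, Sox9 and Sox10), and all 10 were found among the 27179 genes of the deposited tables by their gene identifiers. RNA of fluorescence-sorted mouse spinal motor neurons (MNs) was measured by RNA-Seq in 18 samples. At postnatal day 8 (p8), 3 brachial, 3 thoracic and 3 lumbar samples came from wild type Chat IRESCre::Ai9 mice, in which every cell that has made Cre from the Chat locus is marked by tdTomato, and cords were pooled within a sample. In the embryo, at E12.5 (written e12), 3 brachial samples labelled Hoxc8 MNΔ came from embryos in which Olig2Cre, active in MN progenitors, deletes floxed Hoxc8, and 6 brachial control samples are labelled wild type. Cells of both e12 groups were isolated through Mnx1-GFP, which reports a homeodomain gene of MNs. The study names segments C4 to T1 for the stages and C7 to T2 for the mutants. Its controls of the mutants carry 2 floxed Hoxc8 alleles without Cre. The 6 control labels do not tell these apart, and all 6 seem to enter the stage comparison. The e12 side of that comparison may therefore mix segments and control genotypes.

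The 3 groups are known for different steps of neural development. SoxB1 factors (Sox1, Sox2 and Sox3) keep neural progenitors undifferentiated, and Sox21, a SoxB2 factor, counteracts them. SoxC factors act in young neurons after they leave the cell cycle and are needed for their differentiation and survival. Among the SoxE factors, Sox9 drives the switch of progenitors to gliogenesis, Sox10 is a master regulator of oligodendrocytes and of Schwann cells, and Sox8 acts beside them with partly shared functions.

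The part of each gene that best matches the other members was located in its coding sequence (GENCODE M21, GRCm38) as an in-frame window of 237 bases, 79 codons, which covers the HMG box. Windows of 5 genes are shown because they carry the stage contrast described below: Sox2 of SoxB, with close levels at both stages, Sox4 and Sox11 of SoxC, higher at e12, and Sox8 and Sox10 of SoxE, higher at p8. They are written 5′ to 3′ on the coding strand, and capitals mark the 106 bases, 44.7% of the window, that are identical in all 10 genes.
Sox2: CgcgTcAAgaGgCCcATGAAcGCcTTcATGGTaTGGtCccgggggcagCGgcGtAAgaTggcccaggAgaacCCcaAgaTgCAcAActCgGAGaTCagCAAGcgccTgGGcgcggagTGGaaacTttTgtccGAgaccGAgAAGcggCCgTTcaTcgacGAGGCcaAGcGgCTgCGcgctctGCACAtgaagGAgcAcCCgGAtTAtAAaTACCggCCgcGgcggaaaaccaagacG
Sox4: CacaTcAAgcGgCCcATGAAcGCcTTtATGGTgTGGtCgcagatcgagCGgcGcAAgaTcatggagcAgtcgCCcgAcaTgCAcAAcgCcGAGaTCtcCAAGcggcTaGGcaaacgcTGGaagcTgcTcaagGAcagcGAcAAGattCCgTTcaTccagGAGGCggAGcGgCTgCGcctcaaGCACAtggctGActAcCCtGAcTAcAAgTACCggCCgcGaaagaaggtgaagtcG
Sox11: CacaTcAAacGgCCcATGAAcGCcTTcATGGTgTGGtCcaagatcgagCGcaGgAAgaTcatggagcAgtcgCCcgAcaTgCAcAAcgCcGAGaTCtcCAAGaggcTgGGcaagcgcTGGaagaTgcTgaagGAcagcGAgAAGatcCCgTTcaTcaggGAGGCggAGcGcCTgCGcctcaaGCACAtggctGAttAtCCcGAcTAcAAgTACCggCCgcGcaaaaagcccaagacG
Sox8: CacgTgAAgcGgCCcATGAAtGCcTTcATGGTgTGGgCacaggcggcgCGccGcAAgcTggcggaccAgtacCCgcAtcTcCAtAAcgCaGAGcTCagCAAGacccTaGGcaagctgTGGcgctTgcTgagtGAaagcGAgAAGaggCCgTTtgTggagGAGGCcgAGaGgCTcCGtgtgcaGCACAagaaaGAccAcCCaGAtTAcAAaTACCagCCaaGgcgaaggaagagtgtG
Sox10: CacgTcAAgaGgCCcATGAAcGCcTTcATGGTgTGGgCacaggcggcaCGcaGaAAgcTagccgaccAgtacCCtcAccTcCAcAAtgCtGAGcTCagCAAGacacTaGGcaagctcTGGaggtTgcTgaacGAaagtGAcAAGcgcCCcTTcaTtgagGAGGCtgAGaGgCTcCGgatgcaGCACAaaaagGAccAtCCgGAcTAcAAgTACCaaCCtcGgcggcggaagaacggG

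Identity of this window followed the groups. Within SoxB it was 87.3% to 89.9%, within SoxC 83.5% to 89.0% and within SoxE 81.4% to 85.2%, whereas pairs from different groups shared 65.4% to 73.4% of bases. Sox4 and Sox11, the SoxC pair with the closest windows, shared 211 of 237 bases (89.0%), and Sox8 and Sox10 shared 193 (81.4%). The gene models set SoxE apart from the other groups. The SoxB and SoxC genes each have 1 exon, and the window lies in it: Sox2 at chr3:34650539-34650775 (plus strand), Sox4 at chr13:28952614-28952850 (minus strand) and Sox11 at chr12:27342031-27342267 (minus strand). Sox8 and Sox9 have 3 exons and Sox10 has 5, and in these SoxE genes the window is split over 2 coding exons, within chr17:25568946-25570231 for Sox8 and chr15:79159289-79163410 for Sox10, both on the minus strand. No pair was above 89.9% identity over the part that is most alike. In the windows shown, no pair shares an unbroken identical run as long as a read of the study. Reads with mismatches and the rest of the genes were not examined for matches to more than 1 gene.

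Before the comparisons, 3 properties of the tables bear on every value. The deposited tables hold a mean over samples and a fold change for each gene, with no value per sample, so a level below is a normalized count of a whole group, solved from that mean and fold change, and the spread between samples enters only through the standard error of the fold change. Genes with only 1 read in all samples gave back the size factors, a measure of depth relative to the other libraries. The stage of each library was inferred from the median log2 fold change (e12 over p8) of these genes. It was -0.77 for 6 libraries, taken as e12 controls, and -1.68 to -1.91 for 3, taken as p8 brachial. The 6 e12 control libraries lay between 1.32 and 1.71, whereas the 3 p8 brachial libraries had 1.45, 0.963 and 0.0838. The shallowest p8 library was thus 17.3 times below the deepest p8 library. With regions inferred from regional fold changes in the same way, the thoracic and lumbar groups each held a shallow library too (0.228 and 0.509 in the regional tables). Values with and without these libraries cannot be given from group tables. Markers of the labelled cell type were also uneven between the stages. Of 8 MN markers, 5 were higher at e12 and none at p8, with a summed level of 1172 (0.00324% of all normalized counts) at p8 and 8126 (0.0528%) at e12. Oligodendrocyte markers made up far more of the p8 counts, as given below, so the p8 groups are called samples here and not MNs. Mnx1 had 5.80 normalized counts at p8 and 3504 at e12, and Chat, which drives the p8 label and was singled out after its values were seen, had 37.8 at p8 and 202 at e12 (log2 fold change e12 over p8 2.42, adjusted p = 0.0836 by the DESeq2 Wald test). By the same test Prph, with 796 at p8 and 2210 at e12, did not pass either (adjusted p = 0.291). Slc5a7, also singled out after its values were seen, had 266 at p8 and 182 at e12 (adjusted p = 0.708).

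The stage comparison sets e12 control against p8 brachial samples, both sorted as MNs but through different reporters. Stage and reporter change together and cannot be told apart. Among the Sox genes this comparison gave opposite directions for SoxC and for a pair of SoxE genes. Sox11 and Sox4 of SoxC and Sox1 of SoxB were higher at e12, Sox10 and Sox8 of SoxE were higher at p8, and Sox2, Sox3, Sox21 and Sox9 passed in neither direction. Sox12 carries a fold change but no p. Of the 9 genes with a p, 2 (22.2%) passed an adjusted p of 0.05 on the p8 side and 3 (33.3%) on the e12 side, where 23.0% of all 18787 genes tested passed as higher at p8 and 24.8% as higher at e12. The shares of Sox genes called were therefore close to those of all genes, and the sizes below are given as a description. The median log2 fold change (e12 over p8, so values above 0 mean higher at e12) was 0.61 for SoxB, 3.09 for SoxC and -5.82 for SoxE, and -0.10 over all genes with a fold change. With 3 genes each, the SoxC median is the value of Sox12 and the SoxE median that of Sox8, while Sox9 lay at 0.64.

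**Figure D1:**
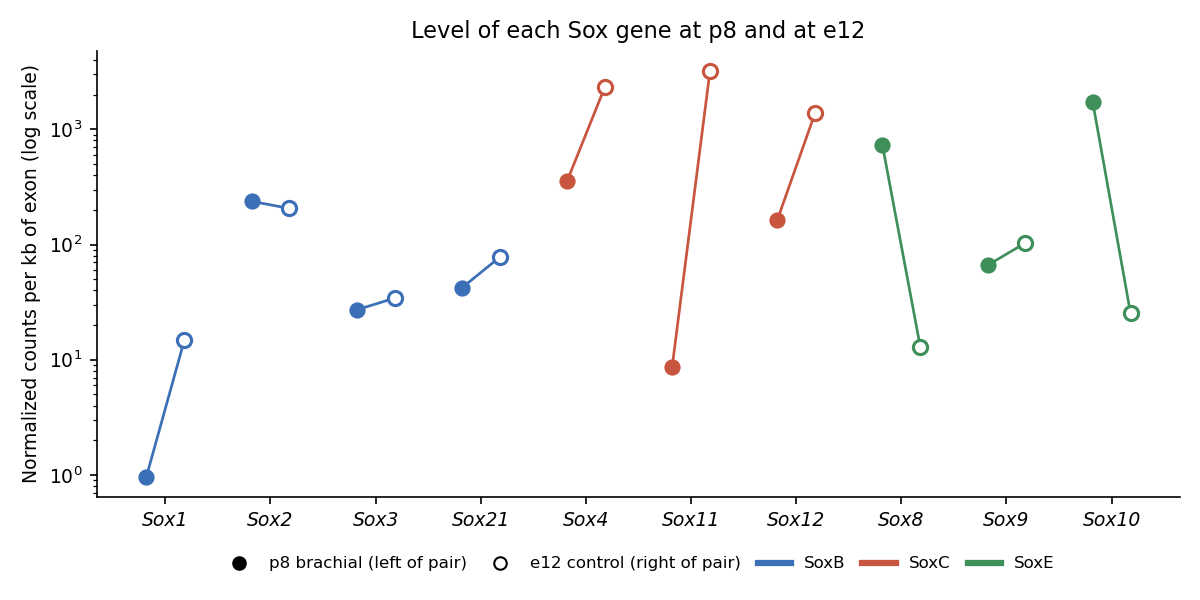
Level of each of the 10 Sox genes in normalized counts per kb of exon (log axis), with p8 brachial as a filled point on the left of each pair and e12 control as an open point on the right. Points are group levels without a spread, and colours mark SoxB, SoxC and SoxE. Sox11 has 8.62 at p8 and 3206 at e12, and Sox10 has 1733 at p8 and 25.3 at e12.

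The SoxC genes were the leading Sox genes at e12. Sox11, a factor of postmitotic neurons, had 71.7 normalized counts at p8 and 26648 at e12, a log2 fold change of 8.54 (95% interval 7.52 to 9.56, adjusted p = 1.83e-58), rank 110 of the 18787 genes tested by p. Sox4, its close relative with which it acts in neuronal differentiation, had 1695 at p8 and 11148 at e12, a log2 fold change of 2.72 (1.90 to 3.53, adjusted p = 4.53e-10). The intervals of these fold changes do not overlap. Per kb of exon, Sox4 had the highest SoxC level at p8 (354, against 163 for Sox12 and 8.62 for Sox11), and at e12 Sox11 had the highest (3206, against 2325 for Sox4 and 1389 for Sox12). Sox12, a SoxC gene with weaker activation in reporter assays than its relatives, had 725 at p8 and 6187 at e12 (log2 fold change 3.09, 95% interval 1.78 to 4.40). It has no p in the deposited table although its base mean lies above that of 97.2% of genes with reads. DESeq2 leaves out the p of a gene with an outlying sample, and 13.5% of genes with base means from 10 upward had none, so no call is made for Sox12.

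In the same comparison the SoxE group was split. Sox10 had 5287 normalized counts at p8 and 77.2 at e12 (log2 fold change -6.10, 95% interval -7.17 to -5.03, adjusted p = 1.85e-27), which is 68.5-fold higher at p8. Sox8 had 2277 at p8 and 40.4 at e12 (-5.82, -6.74 to -4.89, adjusted p = 2.92e-33), 56.3-fold higher at p8. The intervals of Sox8 and Sox10 overlap over most of their length. Sox9 did not follow them. It had 273 at p8 and 427 at e12, with a log2 fold change of 0.64 and a 95% interval of -0.61 to 1.90 (adjusted p = 0.454) that lies wholly above the intervals of the other SoxE genes. Sox9, the SoxE factor of glial onset and astrocytes, was the SoxE gene with the highest level per kb at e12 (103, against 25.3 for Sox10 and 13.0 for Sox8) and the one with the lowest at p8 (66.0, against 1733 for Sox10 and 730 for Sox8).

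Oligodendrocyte genes moved with Sox8 and Sox10. All 10 oligodendrocyte markers were higher at p8, and their summed level made up 43.6% of all normalized counts at p8 and 0.00994% at e12. Mbp, Mobp and Cnp, which encode components of myelin, had log2 fold changes (e12 over p8) of -13.93, -15.63 and -9.77. All 6 markers of oligodendrocyte precursors were higher at p8 as well, with a summed level of 91838 at p8 and 283 at e12. Of 5 Schwann cell markers with a p, 4 were higher at p8 (summed level over 6 markers 1504 at p8 and 205 at e12), and of 6 astrocyte markers with a p, 4 were higher at p8 (summed level over 8 markers 9899 at p8 and 7760 at e12). As a share of all normalized counts, the astrocyte markers went the other way, with 0.0273% at p8 and 0.0504% at e12. Slc1a2, the astrocyte marker with the highest base mean, has no p and had 514 at p8 and 5604 at e12. No marker of these 4 lists had a base mean of 0, and at e12 Opalin, a late oligodendrocyte marker, lay at 0.219, below the 0.332 that 3 reads over the e12 libraries would give. The part of such cells in the levels of Sox8, Sox9 and Sox10 was not tested, and in bulk RNA more cells of a type and more RNA per cell cannot be told apart.

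The factors known to act with SoxE in oligodendrocytes showed the same side. Of 9 such genes, 8 were higher at p8 and none at e12, with a median log2 fold change of -5.13. Olig1, a bHLH factor of the oligodendrocyte lineage, had 21819 at p8 and 35.2 at e12. Zeb2, a zinc finger factor required for myelination, had 6004 at p8 and 558 at e12, and Nkx6-2, a homeodomain factor of oligodendrocytes, had 3795 at p8 and 163 at e12. Zfp536 did not pass, with 1684 at p8 and 1479 at e12 (adjusted p = 0.880).

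Markers of young neurons lay on the e12 side with the SoxC genes. All 8 of their markers were higher at e12, with a summed share of all normalized counts of 0.0222% at p8 and 0.951% at e12. Dcx, a microtubule protein of migrating neurons, had 434 at p8 and 43943 at e12, and Tubb3, a neuronal tubulin, had 588 at p8 and 32728 at e12. Interneuron genes of the V2 and inhibitory classes were on that side too. Of 9 with a p, 8 were higher at e12, among them Pax2 with 0.611 at p8, which is below the 1.20 that 3 reads over the p8 libraries would give, and 7046 at e12. The part of interneurons in the e12 levels of the SoxC and SoxB genes was not tested.

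**Figure D2:**
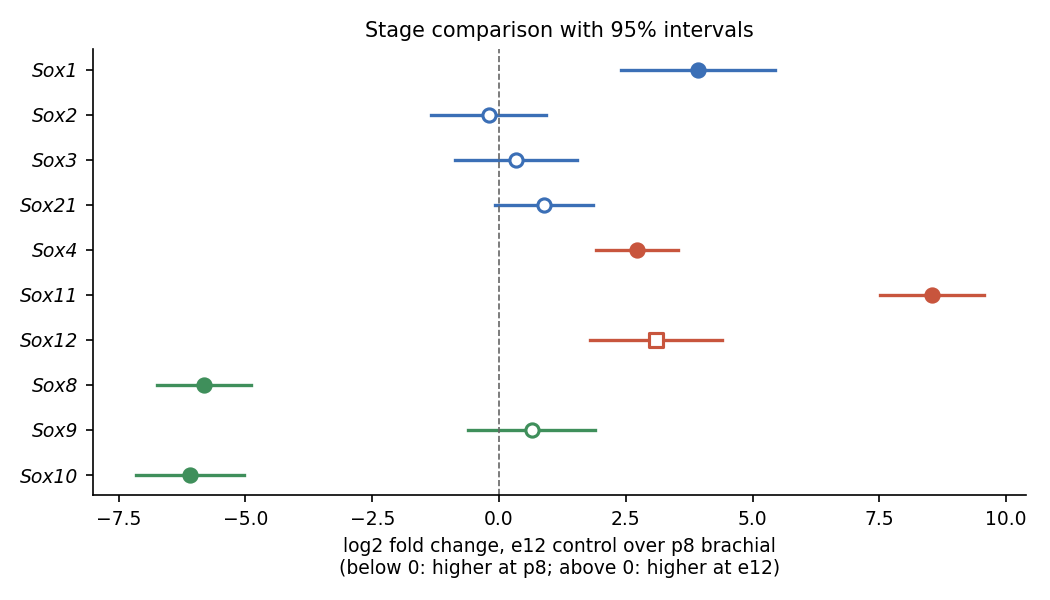
Log2 fold change of each Sox gene between the stages (x axis, e12 control over p8 brachial, below 0 means higher at p8) with 95% intervals as lines. Filled points passed an adjusted p of 0.05, open points did not, and the square marks Sox12, which has no p. Sox8 at -5.82 and Sox10 at -6.10 lie far left of the others, and Sox11 at 8.54 lies far right.

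Of the 4 SoxB genes, 1 passed between the stages. Sox2, the progenitor factor with the highest SoxB level, had 488 normalized counts at p8 and 423 at e12, a log2 fold change of -0.21 with a 95% interval of -1.34 to 0.93 (adjusted p = 0.849). This interval leaves room for a change of about 1 log2 unit either way, so the levels are not shown to be equal. Sox3, its X-linked relative, had 56.0 at p8 and 70.6 at e12 (0.34, -0.86 to 1.54, adjusted p = 0.725). Sox21, the SoxB2 antagonist, had 160 at p8 and 295 at e12 (0.89, -0.08 to 1.85, adjusted p = 0.135). Sox1, which is also known from V2 interneurons, was the SoxB gene that passed. It had 4.67 at p8 and 71.0 at e12 (3.93, 2.41 to 5.45, adjusted p = 2.01e-06), 15.2-fold higher at e12, and its p8 level was the lowest of the 10 genes at either stage, also per kb, and lies a few times above the 1.20 normalized counts of 3 reads.

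Among 8 markers of neural progenitors, 5 were higher at e12 and none at p8, with a summed level of 5241 at p8 and 11698 at e12. Vim, Fabp7 and Nes, which mark radial glia and progenitors, had 2060, 1856 and 182 at p8, against 2614, 2280 and 2354 at e12, and Nes alone of these passed (log2 fold change 3.69). Msi1, an RNA-binding protein of progenitors, had 11.9 at p8 and 2652 at e12. Of the 9 factors with a p that act with SoxB or Sox9 in progenitors and at glial onset, 4 were higher at e12 and none at p8. Notch1 and Nfib, like Sox2 and Sox9, passed in neither direction, with 1809 and 1121 at p8 and 1205 and 707 at e12, whereas Pou3f2, a POU factor that pairs with SoxB1 factors on neural enhancers, had 38.4 at p8 and 925 at e12 (adjusted p = 1.01e-08).

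The calls of Sox3, Sox9 and Sox21 and the sign of Sox2 depended on how the stages were put on one scale, since the levels of all genes sum to 2.35 times as much at p8 as at e12. With fold changes moved by that ratio (1.23 log2 units, a scale tried after the data were seen), Sox3, Sox9 and Sox21 passed as higher at e12 at log2 fold changes of 1.57, 1.88 and 2.12, and Sox2 did not pass at 1.03 (adjusted p = 0.124). This shift moves every gene alike, and on that scale 11.7% of all genes tested passed as higher at p8 and 44.3% as higher at e12, so the gain is no property of these Sox genes. With the 10 oligodendrocyte markers left out of the sums the shift was 0.41, and of these 4 genes Sox21 passed (1.29, adjusted p = 0.0203), where 18.4% of all genes passed as higher at p8 and 30.7% as higher at e12. Sox1, Sox4, Sox11, Sox8 and Sox10 kept their directions and calls on both scales.

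Taken as shares of the summed level per kb of the 10 genes, SoxE made up 75.2% at p8 and 1.91% at e12, SoxC 15.6% at p8 and 93.6% at e12, and SoxB 9.14% at p8 and 4.49% at e12. The SoxC share at p8 was 24.3% when levels were solved with weights of 3 and 3 samples, and without division by exon length the e12 shares of SoxE and SoxB were 1.20% and 1.89%. Sox10 alone held 51.5% at p8 and Sox8 21.7%. At e12 the shares of Sox11, Sox4 and Sox12 were 43.4%, 31.4% and 18.8%. At p8 the order of levels per kb was Sox10, Sox8, Sox4, Sox2, Sox12, Sox9, Sox21, Sox3, Sox11 and Sox1, and at e12 it was Sox11, Sox4, Sox12, Sox2, Sox9, Sox21, Sox3, Sox10, Sox1 and Sox8. Sox2 kept the fourth place in both. The tables give no spread of a level between samples, so neighbours in these orders cannot be told apart by a test.

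**Figure D3:**
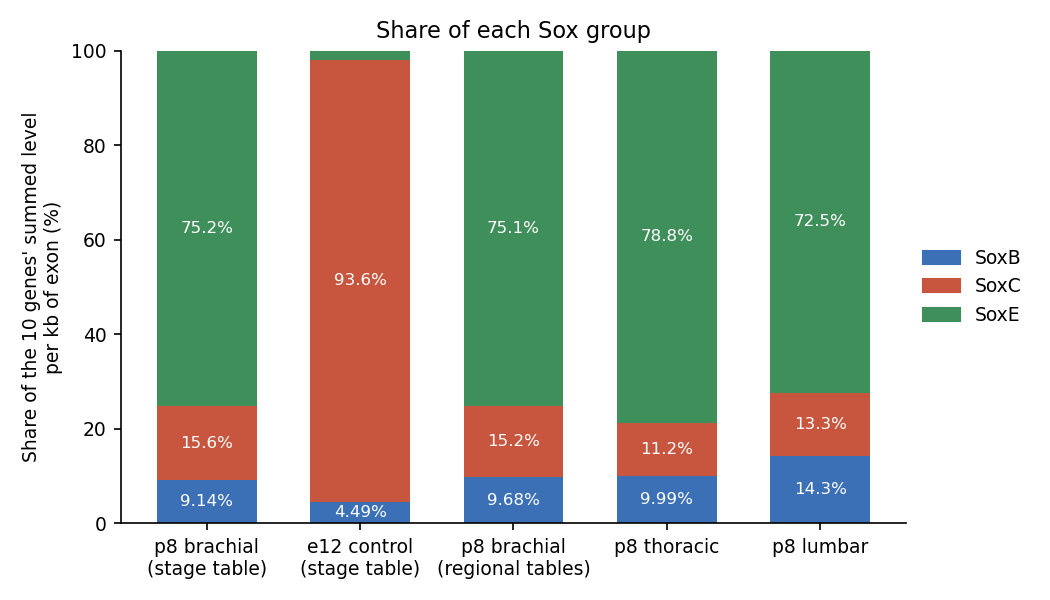
Share of SoxB, SoxC and SoxE in the summed level per kb of exon of the 10 genes (y axis, percent) in each group of samples, as stacked bars without a spread. SoxE holds 75.2% of the p8 brachial bar and 1.91% of the e12 bar, and between 72.5% and 78.8% of the p8 bars of the regional tables.

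Annotated genes overlap 4 of the 10. Sox2 lies inside Sox2ot, a long noncoding RNA gene at chr3:34560381-34677993, and Sox1 inside Sox1ot at chr8:12385771-12436732. Sox2ot had 2366 normalized counts at p8 and 108 at e12 (log2 fold change -4.45, 95% interval -5.53 to -3.37, adjusted p = 8.88e-15), unlike Sox2 itself, whose interval includes 0. Sox1ot had 0.464 at p8, under the level of 3 reads, and 23.6 at e12, on the side of Sox1. Only the spans of these genes were compared, not their exons or strands, and whether counting used strand is not stated. It was therefore not settled whether reads were shared, and Sox1 and Sox2 are uncertain to that extent. Gm4675 overlaps Sox21 and Gm46405 overlaps Sox4, and neither has a row in the stage table. Sequence upstream of the genes was held in RefSeq's promoter windows of 300 bases (GRCm38) for 7 of the 10. Their GC content ran from 52.0% for Sox4 to 76.7% for Sox12 and their CpG count from 12 to 47, where the median of 32851 promoters was 52.7% GC and 7 CpG.

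The genes most like a Sox gene over the stage and regional fold changes were sought for the gene with the highest base mean of each group, by Euclidean distance over 4 log2 fold changes among 11269 genes. For Sox10 these were Slc44a1, Hhip, Ndrg1, Tspan2 and Cpox, at distances of 0.0854 to 0.288, where the median gene lay at 6.27. For Sox11 they were Enc1, Mex3a, Miat, Bsn and Rbfox2, at 0.731 to 1.06 with a median of 8.63, and all 5 had between 23.5 and 82.3 normalized counts at p8 and between 6923 and 24323 at e12. For Sox2 they were Ildr2, Cdk5rap3, Asb8, Elmod3 and Ints4, at 0.109 to 0.167 with a median of 2.16. The tables of the regions share all their samples, and the p8 brachial samples enter all 4 fold changes.

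The regional comparison asks how p8 samples of the brachial, thoracic and lumbar cord differ, with each region set against the other regions pooled. No Sox gene passed in any region. At an adjusted p under 0.05, 0.261% of genes passed in the brachial, 0.0110% in the thoracic and 0.0219% in the lumbar table, and 0 of 9 Sox genes with a p did in each. At an unadjusted p under 0.05 the same genes gave 0 in each region, where 6.54%, 1.45% and 2.88% of genes passed. Sox1 has no p in these tables. The smallest p of the Sox genes belonged to Sox8 in the thoracic table (DESeq2 Wald test, log2 fold change 0.64, 95% interval -0.29 to 1.56, adjusted p = 0.99994).

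The SoxE genes were not shown to differ between regions. Sox10 had 2905 normalized counts in brachial, 3185 in thoracic and 3444 in lumbar samples, and its log2 fold changes of -0.19 in the brachial, 0.00 in the thoracic and 0.18 in the lumbar table had standard errors near 0.45, the lowest among the 10 genes. Sox8 had 1265 in brachial, 2050 in thoracic and 1360 in lumbar samples. Sox9 had 176 in brachial, 238 in thoracic and 395 in lumbar samples, and its 95% interval in the lumbar table, -1.15 to 2.99, was the widest of the SoxE genes there. The 3 SoxE genes thus kept one order, Sox10 above Sox8 above Sox9, in every region, also per kb.

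The SoxC and SoxB genes are given in the order brachial, thoracic and lumbar. Sox4 had 936, 826 and 1153 normalized counts, Sox12 had 372, 321 and 263, and Sox11 had 35.3, 48.6 and 34.4, so that the low p8 level of Sox11 was found in all 3 regions. Of the SoxB genes, Sox2 had 283, 328 and 505, Sox21 had 105, 190 and 240, Sox3 had 29.3, 24.9 and 31.5, and Sox1 had 4.31, 5.57 and 13.0. All 4 SoxB genes had a log2 fold change above 0 in the lumbar table (0.23 to 1.48), and each of their 95% intervals includes 0.

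**Figure D4:**
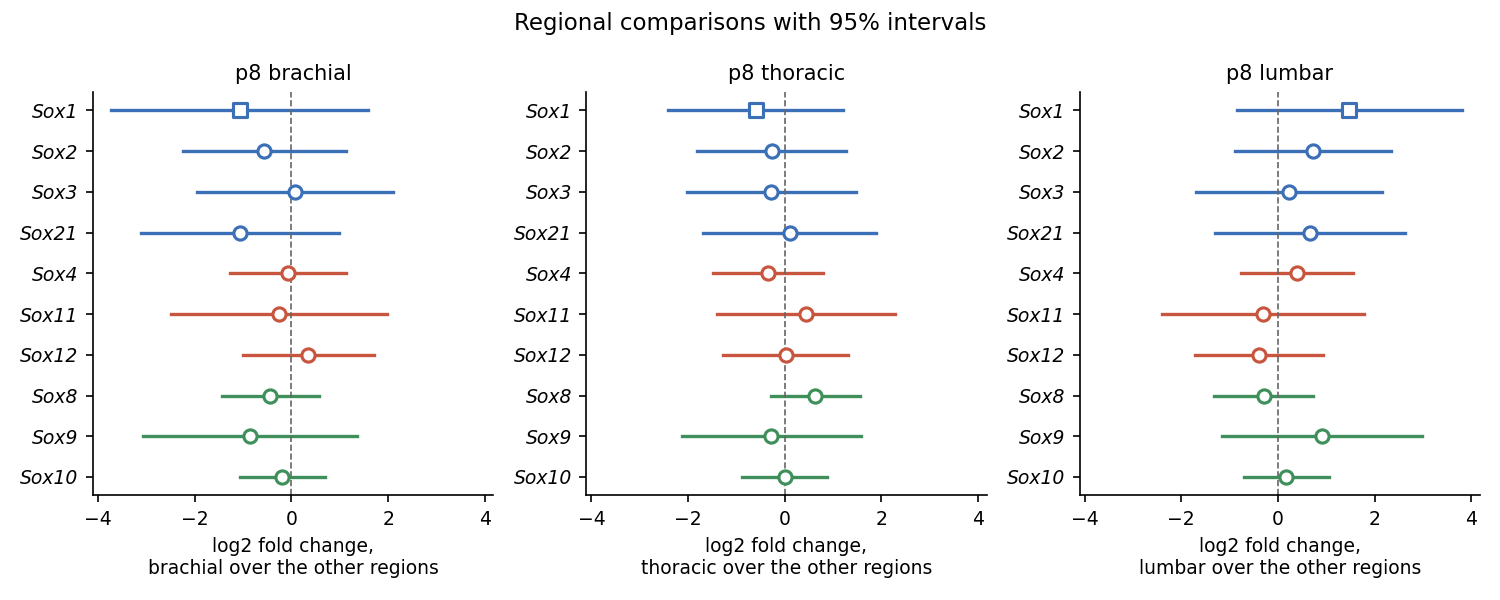
Log2 fold change of each Sox gene in p8 brachial, thoracic and lumbar samples against the other regions pooled (x axis, above 0 means higher in the named region) with 95% intervals as lines. All points are open because none passed, and squares mark Sox1, which has no p. Every interval includes 0, and those of Sox10 and Sox8 are the shortest.

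By group, SoxE made up 75.1%, 78.8% and 72.5% of the summed level per kb in brachial, thoracic and lumbar samples, SoxC 15.2%, 11.2% and 13.3%, and SoxB 9.68%, 9.99% and 14.3%. The brachial shares from the regional tables lie close to those from the stage table for the same samples, although the levels themselves differ because each table has its own size factors. Oligodendrocyte markers did not differ between regions either, with 0 of 10 called in each. Over all genes with base means from 10 upward, the median log2 fold change was -0.14 in the thoracic table, so the thoracic fold changes run low by that amount, and re-centring them on it called no Sox gene. Standard errors of the 10 genes ran from 0.45 to 1.35 in the 3 tables, so a difference of 1 log2 unit would not be detectable for most of them.

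The mutant comparison asks which transcripts of e12 MNs depend on Hoxc8. Hoxc8 itself had a log2 fold change, control over Hoxc8 MNΔ, of 0.10 ± 0.081 (SE; 95% interval -0.06 to 0.26, DESeq2 Wald test, adjusted p = 0.99985), and it did not pass the unadjusted threshold of 0.05. The table does not say which part of the transcript the floxed allele removes. No transcript of this table had a log2 fold change beyond 0.424 in size or a standard error above 0.084. The intervals given here therefore hold only on the scale of the deposited table and set no bound on a change of the RNA itself. Whether its fold changes were drawn toward 0 was not tested. Transcripts with only 1 read in all its samples had median log2 fold changes of 0.0015 or -0.0018. Levels and shares of the 2 genotypes below are solved from these fold changes, so their closeness is not separate evidence.

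No Sox gene passed a p of 0.05 between the libraries labelled Hoxc8 MNΔ and control, where 0.871% of 19634 transcripts did, and 0.0357% passed after adjustment. Per kb of exon, SoxC transcripts made up 92.8% of the summed level of the 10 genes in libraries labelled Hoxc8 MNΔ and 92.7% in the 3 control libraries of this table. Sox11 had 38532 normalized counts in libraries labelled Hoxc8 MNΔ and 37883 in control (log2 fold change control over mutant -0.02, 95% interval -0.12 to 0.07). Sox4 had 15647 in libraries labelled Hoxc8 MNΔ and 16651 in control (0.09, -0.06 to 0.24), the largest difference among the 10 genes, and Sox12 had 8014 in libraries labelled Hoxc8 MNΔ and 8391 in control (0.07, -0.04 to 0.17). None of these intervals excludes 0.

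The SoxB and SoxE genes did not pass either. In libraries labelled Hoxc8 MNΔ, Sox2, Sox21, Sox1 and Sox3 had 744, 350, 109 and 102 normalized counts, against 772, 360, 107 and 101 in control. Sox9, Sox10 and Sox8 had 722, 101 and 62.6 in libraries labelled Hoxc8 MNΔ, against 753, 107 and 59.1 in control. Log2 fold changes over all 10 genes ran from -0.08 for Sox8 to 0.09 for Sox4, with p between 0.214 and 0.990 (DESeq2 Wald test). SoxB made up 5.03% of the summed level per kb in libraries labelled Hoxc8 MNΔ and 5.06% in control, and SoxE 2.18% in libraries labelled Hoxc8 MNΔ and 2.21% in control. Among the companion lists, 4 genes passed the unadjusted threshold, all lower in libraries labelled Hoxc8 MNΔ, and they are named after their values were seen. Their log2 fold changes (control over mutant) were 0.22 for Cspg4, a marker of oligodendrocyte precursors, 0.20 for Mnx1, the gene behind the GFP sort, 0.18 for Hes5, a Notch target of progenitors, and 0.15 for Olig2, whose locus carries the Cre of the mutants, each with a DESeq2 adjusted p of 0.99985. Cspg4 was 1 of 5 oligodendrocyte precursor markers with a p, Mnx1 1 of 7 MN markers and Hes5 1 of 7 progenitor markers. Olig2 was 1 of 8 factors that act with SoxE, and Hes5 was also 1 of 8 that act with SoxB or Sox9. No gene of the remaining lists passed, and over all transcripts 0.871% did.

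**Figure D5:**
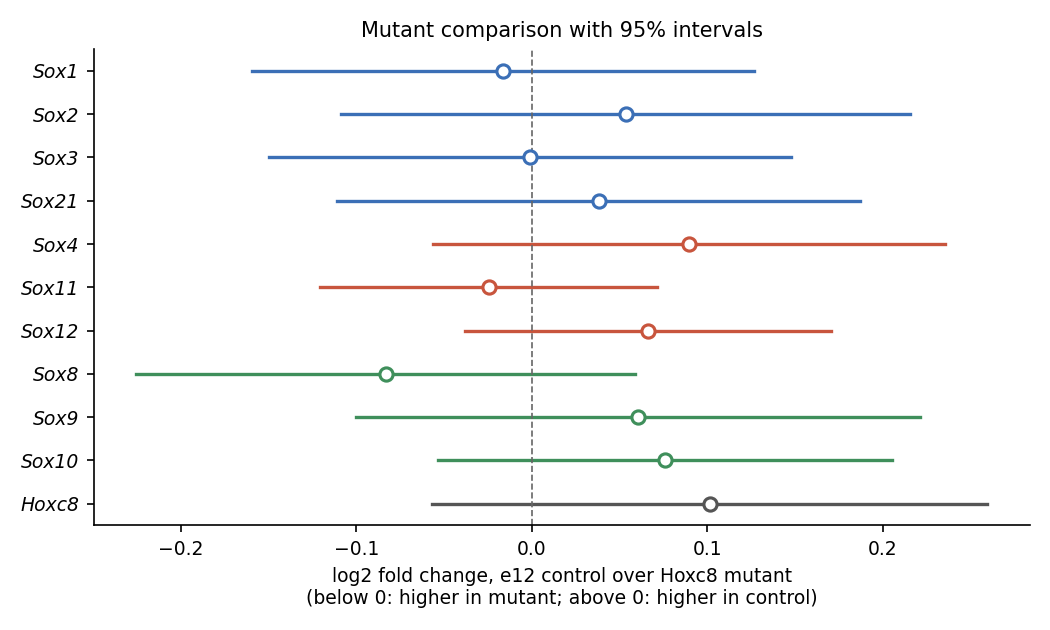
Log2 fold change of each Sox gene and of Hoxc8 at e12 (x axis, control over Hoxc8 MNΔ, below 0 means higher in mutant) with 95% intervals as lines. All 11 points are open because none passed the unadjusted threshold of 0.05, and they lie between -0.08 (Sox8) and 0.10 (Hoxc8).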

How the data were processed

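RNA of sorted MNs was measured in 18 samples, grouped by the stage, region and genotype of their labels. The authors aligned unique reads to GRCm38 (mm10), with the program that the labels name HISAT, counted them with featureCounts and ran DESeq2 on Galaxy, without stating versions, the annotation or the use of strand. They deposited 5 tables of group comparisons. The authors' base mean is a signal: counts divided by size factors and averaged over samples. The log2 fold change of each gene and its standard error were deposited as the authors' model gave them. Their ratio is the deposited Wald score, from which the authors took each 2-sided p-value and an adjusted one. These model columns are the only measurements the tables hold, so they are used here as data.

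Genes were matched to symbols and positions in the GRCm38.p6 RefSeq annotation (93.0% of genes and 99.2% of transcripts), with the transcript of highest base mean for each symbol in the mutant table. All genes of a table with a p entered its Benjamini-Hochberg adjustment. The threshold was 0.05, set on the adjusted p for stages and regions, without the fold threshold of 4 that the study used for stages, and on the unadjusted p for mutants. Intervals of 95% came from the standard errors and the normal distribution. Levels were solved from base mean and fold change with weights of 6 e12 and 3 p8 samples, of 3 and 3 in the mutant table, and by least squares over the 3 regional tables. The labels list 6 controls and single-read genes gave 9 size factors in the stage table, although the methods name 3 replicates at e12.5. Levels per kb use the exon length of GENCODE M21. Total read counts per sample are not in the group tables, so depth is given as size factors, and a level of 3 reads over a group served as a floor.

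The 10 genes, the 11 companion lists and the named genes were chosen with earlier results of these data known. Named are all 10 genes, Hoxc8, up to 4 members with the highest base mean of each list, overlapping genes, and the 5 genes nearest to the leading member of each group among those with a base mean of at least 100 in the stage table and 10 in the regional tables. A gene named by this rule is not reported here. The adjustment, the solving of levels from base mean and fold change and the recovery of size factors were tested on simulated data, and the other calculations were not. Alternatives were other adjustments, base mean filters of 10 and 100, fold thresholds of 2 and 4, other scales, weights and lengths. Samples could not be left out or refitted. Computations used pandas 2.3.3, numpy 2.4.6 and scipy 1.17.1 in Python 3.11.15, with figures from matplotlib 3.10.9.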

Additional observations from a re-analysis of the deposited data

How the results depend on the processing

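Of the stage calls, 5 of 9 Sox genes passed in the fit as deposited, and the counts were 4 to 6 with the adjusted p as deposited, Benjamini-Yekutieli adjustment, base means of at least 10 or 100, re-centred fold changes, folds over 2 or 4 in addition, and sums without oligodendrocyte markers. The 4 came from the base mean of at least 100, which leaves out Sox1. Scaled to the summed levels of all genes, a choice made after the data were seen, 8 passed, 6 of them higher at e12, where the shift also took the share of all genes called higher at e12 to 44.3%. The p-values of that scale leave out the error of the shift itself. No Sox gene passed in a regional table or the mutant table under any alternative run. With weights of 3 and 3 samples the SoxC share per kb at p8 was 24.3%, and without division by exon length the e12 shares of SoxB and SoxE were 1.89% and 1.20%. Sox10 and Sox8 had p8 levels of 3575 and 1545 with weights of 3 and 3. None of the called directions reversed. No paired analysis was possible because the tables hold no values per sample, and for the same reason no replicate could be left out, which matters most for the p8 levels, where 1 brachial library had a size factor of 0.0838. Low counts limit Sox1 at p8 and Sox11 in the p8 regions.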

Other observations

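A further 9 Sox genes that are not among the 10 were looked up. Of the 8 with a p in the stage table, 3 were higher at e12 and 2 at p8. Over all 18787 genes tested, 24.8% passed as higher at e12 and 23.0% as higher at p8, so the values below are given as a description. Among SoxD genes, which modulate SoxE activity in the oligodendrocyte lineage, Sox5 had 52.5 normalized counts at p8 and 260 at e12 (log2 fold change e12 over p8 2.31, 95% interval 1.58 to 3.04, adjusted p = 3.86e-09 by the DESeq2 Wald test). Sox13 had 302 at p8 and 519 at e12 (0.78, 0.35 to 1.22, adjusted p = 0.00125). Sox6 did not pass, with 641 at p8 and 410 at e12 (adjusted p = 0.267).

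SoxF genes, known from endothelium, lay on the p8 side. Sox18 had 144 at p8 and 3.33 at e12 (-5.44, -7.27 to -3.60, adjusted p = 3.85e-08), Sox17 had 54.9 at p8 and 3.75 at e12 (adjusted p = 0.0283), and Sox7, without a p, had 126 at p8 and 20.8 at e12. Sox14, a SoxB2 gene of spinal interneurons, had 0.586 at p8, under the level of 3 reads, and 85.7 at e12 (adjusted p = 1.30e-07). None of the 9 passed in a regional table or the unadjusted threshold in the mutant table. The values of Sox5, Sox7, Sox14, Sox17 and Sox18 are given after they were seen, beside those of Sox6 and Sox13.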
